A study of Rattus norvegicus with 12 samples.

Results

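The transcripts of 5 genes of the circadian clock, Per2, Per3, Cry1, Clock and Bhlhe40, were followed in rat nervous tissue after acrylamide, an industrial chemical that damages nerves. The members were all probe sets to which the platform annotation gives 1 of these symbols alone, 10 of 31042 probe sets and 5 of 14217 gene symbols. Clock had 4 probe sets, Per2 and Per3 had 2 each, and Cry1 and Bhlhe40 had 1 each. The study dosed young male Wistar rats orally, by gavage, with acrylamide (30 mg/kg per day) or with saline, called solvent in another label, for 21 days from an age of 25 days or 3 weeks, as the labels give it in different places; another label can be read as collection 21 days after the treatment. The cerebellum, spinal cord and sciatic nerve were each measured on 2 arrays per treatment, which gave 12 arrays in 6 groups. Each array carried RNA pooled from 2 rats, so that p-values measure the spread between pools. The rats were kept on a light and dark cycle, and the hour at which tissue was taken is not given in the sources used here.

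The clock is a feedback loop of transcription. CLOCK and its partner BMAL1 bind E-box sequences and switch on the Per, Cry, Nr1d1 and Bhlhe40 genes; PER and CRY proteins then enter the nucleus and hold CLOCK and BMAL1 back, and BHLHE40 (DEC1) competes for the same E-boxes. The REV-ERB receptors, encoded by Nr1d1 and Nr1d2, repress Bmal1, and the D-box factors, the activator DBP and the repressor NFIL3, carry the rhythm to further genes. In peripheral tissues and in much of the brain these transcripts cycle over the day, with Clock itself varying least, and Per1 and Per2 also respond to neuronal activity and to glucocorticoid hormones.

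Signals are in arbitrary units as deposited by the authors, and the median of an array lay between 161 and 199. Differences are log2 differences of (signal + 16) ± the standard error of 1 limma model over the 12 arrays, which understates differences where signals are low, and calls need a Benjamini-Hochberg adjusted p under 0.05 over all probe sets tested. Defining markers followed the tissue labels: the cerebellar gene Pcp2 was at 12945 to 13909 in the cerebellum and at 54.2 to 89.6 in the cord, Chat of motor neurons was at 485 to 586 in the cord, and Prx of Schwann cells was at 18215 to 25095 in the nerve. Schwann cell genes (6 of 8 listed) summed to 36278 to 46537 in the cord, against 80152 to 103892 in the nerve and 2980 to 3201 in the cerebellum. The nerve arrays of replicate 1 also carried cerebellar transcripts, with a summed signal of 8 cerebellar neuron genes (of 10 listed) of 9328 on the saline and 12312 on the acrylamide array, against 830.5 and 746 on the replicate 2 arrays and 69548 to 75504 in the cerebellum. Skeletal muscle genes (9 of 10 listed) summed to 53543 on saline replicate 1 of the cord, against 2993 to 3481 on the other cord arrays, and to 27285 on acrylamide replicate 2 of the nerve, against 1071 to 9066 on the other nerve arrays. Fat cell genes (8 of 8) summed to 41165 on saline replicate 1 of the nerve, against 9817 to 16095 on the other nerve arrays.

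Of the 10 probe sets, 7 lay above the filter on dim signals, a mean of 112 in a tissue, and these 7 did so in all 3 tissues. The 3 that were not tested were 1378560_at of Per2, with signals of 6.98 to 18.8, 1388239_at of Per3, with 12.3 to 141, and 1369168_a_at of Clock, with 13.2 to 89.5. Each of the 5 genes was thus represented by at least 1 tested probe set, Clock by 3.

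Promoter sequences of 4 of the 5 genes were in the RefSeq table of build GRCr8, which holds 250 bases before and 50 after a start, with 2 starts for Clock. They were searched on both strands for the E-box CACGTG, the related E-box form CACGTT, the D-box TTATGTAA and the core TAGGTCA of the element bound by REV-ERB. Bhlhe40 held CACGTG, which begins 220 bases before its start and is found in 6.42% of 33469 such windows. Per2 held TTATGTAA 192 bases before the start used, found in 0.893% of windows, and CACGTT 62 bases before it, found in 4.83%. The most upstream annotated start of Per2 lies 76 bases before the start used, so this CACGTT is downstream of that start. No match to these letters lay in the windows of Per3 and Clock. TAGGTCA, in 2.63% of windows, was in none of the members' windows. The Bhlhe40 stretch (chr4:143174200-143174449, + strand) and the Per2 stretches (chr9:99497070-99497243 and chr9:99497038-99497067, - strand) are shown because they hold the members' matches, which stand in capitals:
Bhlhe40 upstream: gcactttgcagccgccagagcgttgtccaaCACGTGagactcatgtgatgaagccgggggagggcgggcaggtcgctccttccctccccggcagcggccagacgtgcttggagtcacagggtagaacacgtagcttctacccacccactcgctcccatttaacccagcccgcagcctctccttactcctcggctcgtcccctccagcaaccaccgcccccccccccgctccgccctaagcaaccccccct
Per2 upstream: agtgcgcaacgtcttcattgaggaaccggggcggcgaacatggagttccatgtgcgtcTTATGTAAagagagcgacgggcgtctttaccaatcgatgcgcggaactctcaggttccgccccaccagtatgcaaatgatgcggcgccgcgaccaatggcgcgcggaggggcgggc
Per2 near the start: aacgcgcgcggtCACGTTttccactatgtg

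Short windows of 30 bases around matches in other clock genes are set beside them for comparison, since Bhlhe41 (DEC2) is the relative of Bhlhe40 and Nr1d1 is the tested clock gene with the largest acrylamide difference in the nerve. They come from chr4:180569386-180569415 for Bhlhe41 and from chr10:84231969-84231998 and chr10:84229628-84229657 for the 2 starts of Nr1d1, all on the - strand of GRCr8, with the match in capitals (AACGTG is CACGTT read on the other strand):
Bhlhe41: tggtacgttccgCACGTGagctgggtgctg
Nr1d1 start 1: cgcatagagctcAACGTGcccgctgctgga
Nr1d1 start 2: tgtcagctcccaCACGTGtctggggatcct
Among 25 of 30 other clock genes with a window, 6 held CACGTG and 4 held CACGTT on either strand. TAGGTCA was held by 1, Bmal1, beginning 16 bases before its start, and TTATGTAA by 0. The shares of all windows, counted per window and not per gene, were 6.42%, 4.83%, 2.63% and 0.893% in that order. A match describes the letters and is not a measured binding site.

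Per2, Per3 and Cry1 were highest in the cerebellum, and Clock was lowest in the spinal cord on each of its 3 tested probe sets. Bhlhe40 was close to even over the tissues with both treatments together, and lowest in the nerve in saline arrays alone. In these bulk samples, fewer cells of a type and less RNA per cell cannot be told apart. Values are means ± SD over the 4 arrays of a tissue, saline and acrylamide together.

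Cry1, a repressor of CLOCK and BMAL1, was brightest in the cerebellum, with 1144 ± 59.3 (SD, n = 4), against 478 ± 17.4 in the cord and 445 ± 79.5 in the nerve. No cerebellar array overlapped with those of the other tissues, which overlapped with each other. The log2 difference was -1.23 ± 0.08 for cord against cerebellum (limma adjusted p = 1.67e-06) and -1.35 ± 0.08 for nerve against cerebellum (adjusted p = 3.63e-07). Nerve and cord were at -0.12 ± 0.08 (adjusted p = 0.207, with a 95% interval of -0.29 to 0.06).

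Per2 had signals of 661 ± 153 (SD, n = 4) in the cerebellum, 291 ± 24.8 in the cord and 273 ± 46.0 in the nerve. Its log2 difference was -1.12 ± 0.13 for cord against cerebellum (limma adjusted p = 6.47e-05) and -1.21 ± 0.13 for nerve against cerebellum (1.94e-05), while the 95% interval for nerve against cord ran from -0.39 to 0.20. Per3, the period gene least needed to keep the loop running, had signals of 615 ± 24.5 in the cerebellum, 266 ± 31.2 in the cord and 432 ± 97.3 in the nerve. Unlike those of Per2 and Cry1, its nerve arrays all lay between the cord and the cerebellar ones, with a log2 difference of 0.65 ± 0.08 from the cord (limma adjusted p = 8.77e-05) and of -0.52 ± 0.08 from the cerebellum (0.000272).

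The probe sets of Clock disagreed on which tissue was highest. On 1389456_at the signal was 1198 ± 22.6 (SD, n = 4) in the cerebellum, 621 ± 40.8 in the cord and 814 ± 44.0 in the nerve. On 1390199_at it was 907 ± 22.8, 764 ± 34.8 and 1579 ± 26.8 in the same order. The arrays of the 3 tissues did not overlap on either probe set, so the first placed the cerebellum above the nerve and the second the nerve above the cerebellum, with log2 differences for nerve against cerebellum of -0.55 ± 0.07 (limma adjusted p = 5.96e-05) and 0.79 ± 0.06 (1.38e-06). On the third, 1380098_at, the signals were 360 ± 72.9, 234 ± 33.5 and 415 ± 60.2, and nerve and cerebellum overlapped. The cord was below the cerebellum on all 3, at -0.93 ± 0.07 (limma adjusted p = 4.1e-06), -0.24 ± 0.06 (0.00438) and -0.58 ± 0.13 (0.00351) in the order named. The last call ended with saline arrays alone, at -0.26 (limma adjusted p = 0.265, the highest of 0.00163 to 0.265 under the 22 alternatives).

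In saline arrays alone, Bhlhe40 in the nerve (215 and 225) lay below the cerebellum (277 and 325) and the cord (308 and 302). Its log2 difference for nerve in saline arrays was -0.44 ± 0.15 against cord (limma adjusted p = 0.026) and -0.42 ± 0.15 against cerebellum (0.0274). With both treatments together the gene varied little between tissues. Its signals were then 309.5 ± 27.3 (SD, n = 4) in the cerebellum, 330.1 ± 34.6 in the cord and 274 ± 69.1 in the nerve. The arrays of every pair of tissues then overlapped. Only nerve against cord passed, at -0.28 ± 0.10 (limma adjusted p = 0.0351), and this call ended under 11 of 22 alternatives, among them quantile normalization (-0.18, adjusted p = 0.156), the fit without the replicate 1 arrays of the nerve (-0.19, 0.175) and each of 6 fits that left out 1 array (-0.29 to -0.20 in those 6), with adjusted p between 0.0157 and 0.321 over the 22.

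In all, 6 of the 7 tested probe sets passed lower in the cord than in the cerebellum, where 34.9% of all probe sets tested passed lower, 31.9% higher and 66.8% in either direction. For nerve against cord, 4 passed higher and 1 lower, beside 36.2% and 34.1% of all (70.3% together). For nerve against cerebellum, 1 passed higher and 4 lower, beside 34.6% and 44% (78.6% together). The median difference of the members was -0.93, 0.38 and -0.52 in these 3 comparisons, and that of all probe sets tested was -0.06, 0.04 and -0.14. Without the replicate 1 nerve arrays the differences between nerve and cerebellum were -1.25 for Per2, -0.44 for Per3 and -1.42 for Cry1, each still passing.

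**Figure D1:**
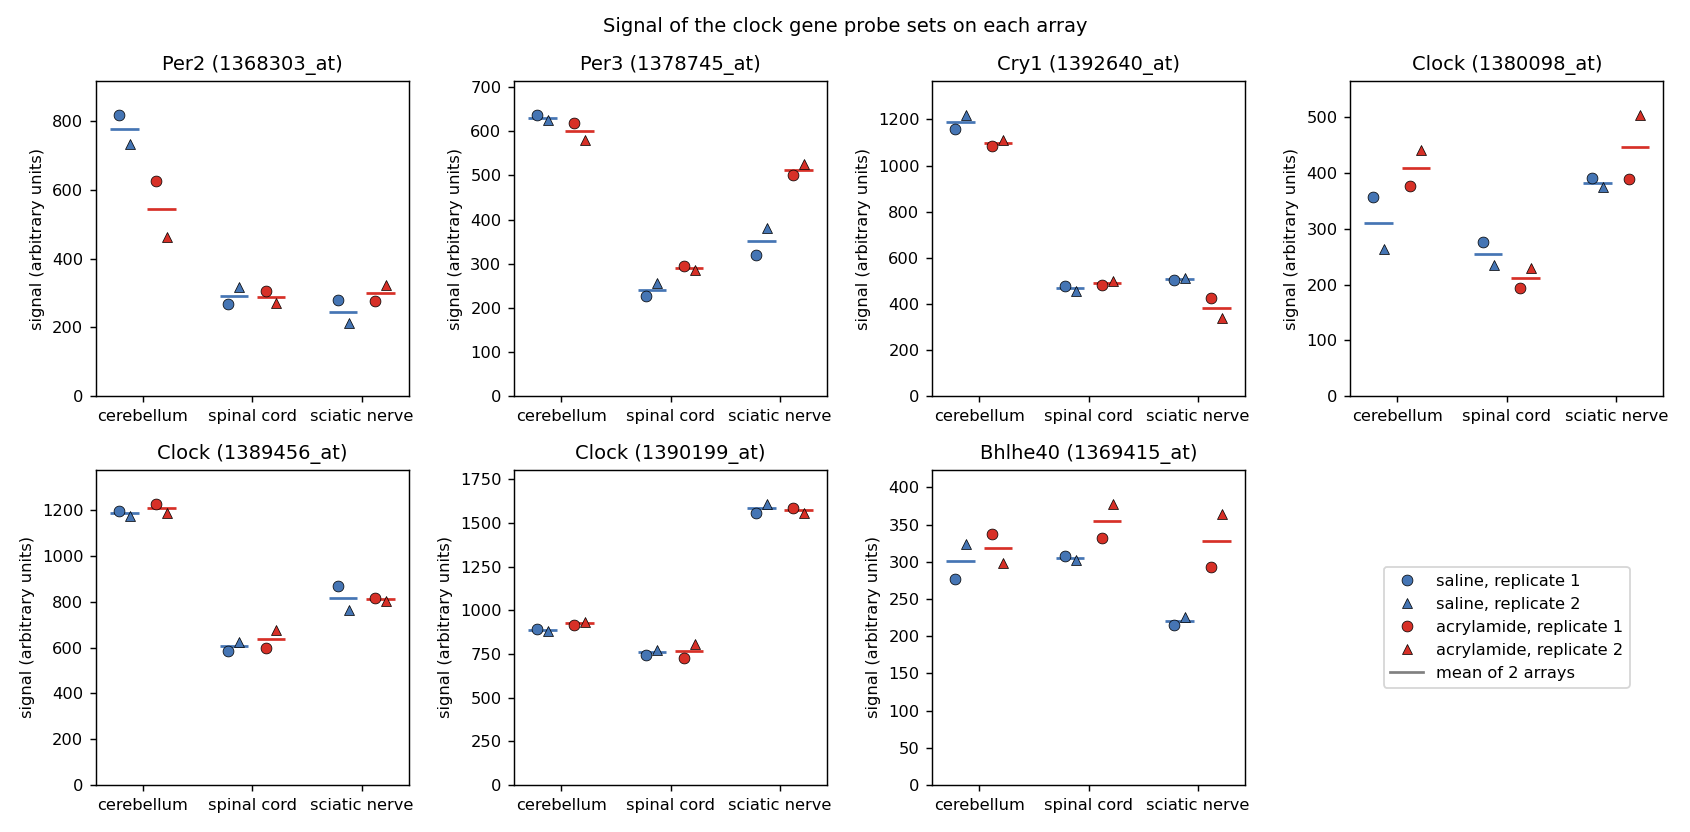
Signal in arbitrary units (vertical axes, from 0) of the 7 tested probe sets on each of the 12 arrays, by tissue; circles are replicate 1, triangles replicate 2, and bars the mean of the 2 arrays of a group. Per2, Per3 and Cry1 are highest in the cerebellum, the nerve values of Clock are above the cerebellar ones on 1390199_at and below them on 1389456_at, and Per3 and Bhlhe40 on the acrylamide arrays of the nerve lie above both saline arrays.

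In the sciatic nerve, where acrylamide is known to damage long axons, 3 members had acrylamide arrays apart from the saline arrays: Per3 and Bhlhe40 lay above and Cry1 below. These 3 had unadjusted limma p-values under 0.05 and none passed adjustment over all probe sets. The groups overlapped for Per2 and for all 3 probe sets of Clock.

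Per3 in the nerve had signals of 320.4 and 382 on the saline arrays (replicates 1 and 2) and of 500.3 and 526 on the acrylamide arrays. The groups did not overlap, and the lower acrylamide array stood further from the higher saline array than either pair of replicates was apart. The means were 351 ± 43.4 (SD, n = 2) and 513 ± 17.9, a ratio of 1.46, and the log2 difference was 0.53 ± 0.12 (limma adjusted p = 0.70). It stayed between 0.41 and 0.65 when any array was left out. The lowest nerve signals of Per3 and Bhlhe40 were on saline replicate 1, the array with the highest sums of fat cell genes and of microglia and macrophage genes (4767 against 1409 to 2906); without it Per3 was at 0.41 and Bhlhe40 at 0.51.

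Bhlhe40 in the nerve had signals of 215 and 225 on the saline arrays and of 293 and 364 on the acrylamide arrays. Here too both acrylamide arrays lay above both saline arrays, with replicate 2 the higher. The means were 220.2 ± 7.25 (SD, n = 2) and 328 ± 50.6, a ratio of 1.49, with a log2 difference of 0.54 ± 0.15 (limma adjusted p = 0.895). Without acrylamide replicate 2 the difference was 0.39.

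Cry1 in the nerve had signals of 503 and 511 on the saline arrays and of 425 and 341 on the acrylamide arrays. Both acrylamide arrays were below, and the saline pair was nearly equal. The means were 507 ± 5.31 (SD, n = 2) and 383 ± 59.9, a ratio of 0.756, with a log2 difference of -0.40 ± 0.11 (limma adjusted p = 0.895). The difference was -0.24 without acrylamide replicate 2 and -0.56 without the replicate 1 nerve arrays. In that last fit, which keeps 1 nerve array a group and assumes that it varies like the other groups, Cry1 had a limma adjusted p of 0.0523 (0.0523 to 1 over 22 alternatives), and 389 of 17906 probe sets were called where the model of all arrays called 1. Without those arrays, which held the cerebellar transcripts, Per3 was at 0.45 (limma adjusted p = 0.175, with 0.174 to 1 over 22 alternatives) and Bhlhe40 at 0.66 (0.118, with 0.118 to 1 over 21 alternatives).

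The nerve array with the lowest Cry1 and the highest Bhlhe40 signal, acrylamide replicate 2, also had the highest sum of skeletal muscle genes, 27285, and of 10 immediate early genes, 11184 against 6469 to 9076 on the other nerve arrays. Fos, Junb, Egr1, Nr4a3 and Ier2 were highest on that array, and Fosb, Arc, Nr4a1, Nr4a2 and Dusp1 were highest on a saline array. The sum of 6 glucocorticoid-induced genes (of 7 listed), among them Per1, was 12427 and 13839 on the saline and 10846 and 10407 on the acrylamide arrays of the nerve. Ddit4 (2753 and 2900, then 1525 and 1180), Tsc22d3 and Per1 were lower on both acrylamide arrays. Fkbp5 was higher on both (225.5 and 144.6, then 258 and 230), and Sgk1 and Klf9 overlapped. Without acrylamide replicate 2 the nerve differences were 0.50 for Per3, 0.39 for Bhlhe40 and -0.24 for Cry1. The part of the glucocorticoid-induced genes in the member values was not tested.

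Per2 in the nerve had signals of 279.9 and 212 on the saline arrays and of 278 and 323 on the acrylamide arrays. Saline replicate 1 lay above acrylamide replicate 1, so the groups overlapped, and the log2 difference was 0.28 ± 0.18 (limma adjusted p = 0.999), 0.57 without the replicate 1 arrays, and between 0.09 (without saline replicate 2) and 0.47 (without saline replicate 1) with 1 array left out. Clock had signals of 871 and 764 in saline and of 817 and 804 in acrylamide arrays on 1389456_at, and of 1557 and 1612 against 1588 and 1557 on 1390199_at. The 95% intervals of these Clock differences ran from -0.23 to 0.21 and from -0.19 to 0.17 on the log2 scale. On 1380098_at Clock was at 390.4 and 375 in saline and at 390.2 and 505 in acrylamide arrays, a difference of 0.21 ± 0.18 that ran from 0.03 (without acrylamide replicate 2) to 0.39 (without acrylamide replicate 1).

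Over the nerve as a whole, limma with Benjamini-Hochberg adjustment called 0 of the 7 member probe sets, beside 0.00551% of all probe sets. At an unadjusted p under 0.05 there were 2 members higher and 1 lower, beside 2.72% and 2.38% of all. Groups did not overlap for 3 of the 7, 2 above and 1 below, beside 26.2% of all (13.3% above and 12.9% below).

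In the cerebellum the largest difference was that of Per2, which lay below saline on both acrylamide arrays. Its signals were 819 and 734 on the saline arrays and 626 and 464 on the acrylamide arrays. The groups did not overlap, although the acrylamide replicates were further apart than the nearest arrays of the 2 groups. The means were 777 ± 59.9 (SD, n = 2) and 545 ± 114, a ratio of 0.702, and the log2 difference was -0.51 ± 0.18 (limma adjusted p = 0.999975). It was -0.30 without acrylamide replicate 2 and -0.72 without acrylamide replicate 1. Immediate early genes, the transcripts first to appear when a neuron is activated, summed to 9862 and 6934 on the saline and to 4341 and 4068 on the acrylamide arrays. Among them Fos, Egr1, Nr4a1, Nr4a2, Nr4a3, Ier2 and Dusp1 were lower on both acrylamide arrays, and Fosb, Junb and Arc overlapped. The glucocorticoid-induced genes summed to 10542 and 10526 on the saline and to 9782 and 9566 on the acrylamide arrays. The latter sum includes Per1 (554 and 588, then 366 and 287). Ddit4, Tsc22d3 and Sgk1 were also lower on both acrylamide arrays, and Fkbp5 and Klf9 overlapped. On the saline and then the acrylamide arrays, microglia and macrophage genes summed to 1348 and 1535 and to 1851 and 1993. Aif1, Itgam, Csf1r and C1qa were higher on both acrylamide arrays, Cd68 was lower on both at dim signals, and Cx3cr1 overlapped. Astrocyte genes summed to 38098 and 36421 and to 40342 and 40493 in the same order, but the listed genes did not move together. Gfap was higher on both acrylamide arrays (6307 and 7239, then 9836 and 9468), as was Gja1. Slc1a3 was lower on both (14205 and 12561, then 12373 and 12473), and Aqp4, Slc1a2 and Aldh1l1 overlapped. The part of these in the Per2 values was not tested.

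Per3 in the cerebellum had signals of 637 and 624 on the saline and of 619 and 580.5 on the acrylamide arrays. Cry1 had signals of 1158 and 1220.1 on the saline and of 1086 and 1110.4 on the acrylamide arrays. Both genes lay below on both acrylamide arrays, by ratios of 0.951 and 0.923, with log2 differences of -0.07 ± 0.12 and -0.11 ± 0.11. Clock on 1380098_at was at 357 and 265 in saline and at 376 and 441 in acrylamide arrays, a difference of 0.39 ± 0.18, with a 95% interval of -0.03 to 0.80. Both acrylamide arrays were above saline, and the difference ran from 0.18 (without saline replicate 2) to 0.59 (without saline replicate 1). On 1389456_at its signals were 1195 and 1177 in saline and 1229.7 and 1189 in acrylamide arrays, a difference of 0.03 ± 0.10, and on 1390199_at they were 893 and 884 and then 916 and 934, a difference of 0.06 ± 0.08. Bhlhe40 had signals of 277 and 325 in saline and of 338 and 299 in acrylamide arrays, which overlapped.

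Limma called 0 of the 7 probe sets in the cerebellum, as it called 0% of all 18780, with 1 member lower and 0 higher at an unadjusted p under 0.05 beside 1.44% and 1.3% of all. Groups did not overlap for 5 of the 7, 2 above and 3 below, beside 33.7% of all (17.1% above and 16.6% below).

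In the spinal cord the 95% interval of every member's difference crossed 0, and that of Per3 only just. Per3 had signals of 226 and 256 on the saline and of 295 and 287 on the acrylamide arrays. Both acrylamide arrays were above, with means of 241 ± 20.7 (SD, n = 2) and 291 ± 5.52 and a log2 difference of 0.26 ± 0.12, with a 95% interval of -0.007 to 0.52. Bhlhe40 had signals of 308 and 302 on the saline and of 332 and 378 on the acrylamide arrays, again apart, with a difference of 0.21 ± 0.15, which ran from 0.11 (without acrylamide replicate 2) to 0.30 when 1 array was left out. Cry1 had signals of 478 and 456 in saline and of 481 and 499 in acrylamide arrays, a difference of 0.07 ± 0.11. Per2 had signals of 268 and 317 in saline and of 307 and 271 in acrylamide arrays, a difference of -0.01 ± 0.18.

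Clock in the cord had signals of 276 and 235 in saline and of 194 and 230.2 in acrylamide arrays on 1380098_at, a difference of -0.25 ± 0.18. On 1389456_at the signals were 586 and 625 in saline and 597 and 677 in acrylamide arrays, a difference of 0.07 ± 0.10. On 1390199_at they were 747 and 772 and then 728 and 809, a difference of 0.02 ± 0.08. The first probe set had both acrylamide arrays below saline, and the other two overlapped. Of 4 cord arrays some array is always the lowest and another the highest, and no share over all probe sets was taken. Saline replicate 1, the cord array with the muscle transcripts, was the lowest for Per2, Per3 and 1389456_at and the highest for 1380098_at. For Cry1, Bhlhe40 and 1390199_at it lay between other cord arrays. Without it the cord differences were -0.13 for Per2, 0.17 for Per3, 0.22 for Bhlhe40, 0.10 for Cry1, and -0.14, 0.02 and -0.008 for Clock on 1380098_at, 1389456_at and 1390199_at. Sums of cell type markers were apart between the treatments in the cord: microglia and macrophage genes (6 of 6 listed) summed to 3852 and 3842 on the saline and to 5609 and 5387 on the acrylamide arrays, astrocyte genes (6 of 6) to 45675 and 45187 and to 51202 and 51366, and Schwann cell genes to 43774 and 46537 and to 38218 and 36278. Among the genes of these lists on the arrays, Cd68, Slc1a2, Mal and Sox10 overlapped, and the others lay apart in the direction of their sum. The part of these markers in the member values was not tested. Limma called 0 of the 7 in the cord, beside 0% of all, and at an unadjusted p under 0.05 there were 0 members, beside 1.02% of all higher and 1.86% lower. Groups did not overlap for 4 of the 7, 3 above and 1 below, beside 33.6% of all (17.7% above and 15.9% below).

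**Figure D2:**
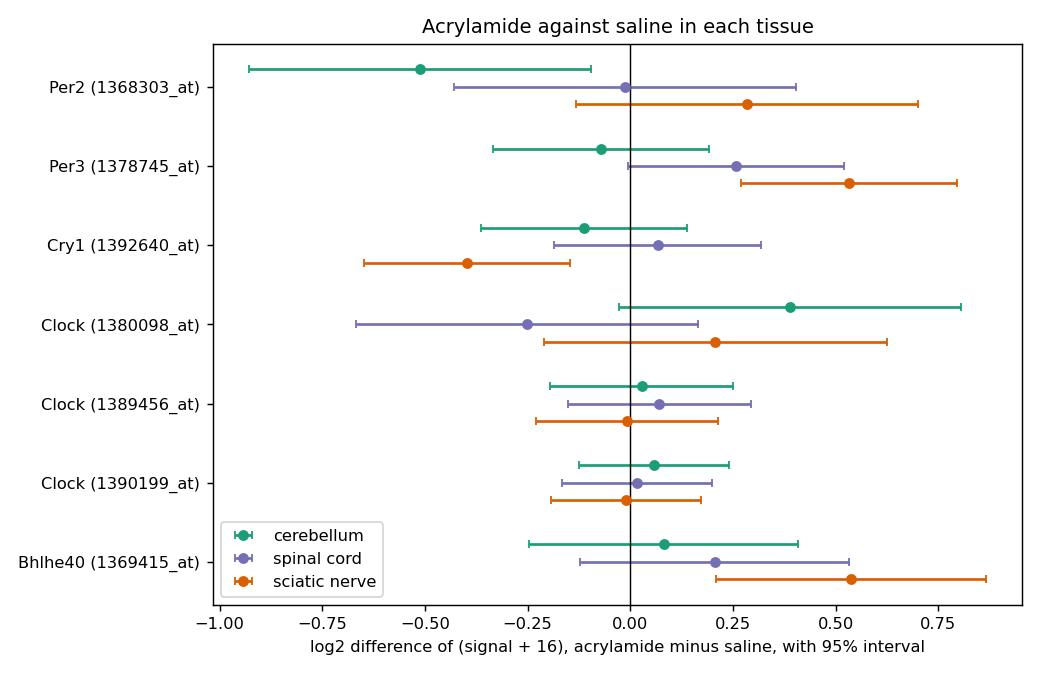
Log2 difference of (signal + 16), acrylamide minus saline (horizontal axis), for the 7 tested probe sets, with the 95% interval of the limma model, by tissue. The intervals of Per3 and Bhlhe40 in the nerve lie above 0, those of Cry1 in the nerve and Per2 in the cerebellum lie below 0, and all others cross 0; none passed adjustment over all probe sets.

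Over the mean of the 3 tissues, Bhlhe40 was at 0.27 ± 0.08 (limma adjusted p = 0.715), Per3 at 0.24 ± 0.07 (adjusted p = 0.62) and Cry1 at -0.15 ± 0.06 (adjusted p = 0.895). Bhlhe40 was at 0.08, 0.21 and 0.54 in cerebellum, cord and nerve, and the cerebellar value turned to -0.03 without saline replicate 1 and to -0.004 without acrylamide replicate 1. Per3 was positive in the cord and nerve, and Per2 was at -0.08 ± 0.11 and Clock at 0.11 ± 0.11, 0.03 ± 0.06 and 0.02 ± 0.05 on 1380098_at, 1389456_at and 1390199_at. Limma called 0 of the 7 beside 0.0127% of all, with 2 higher and 1 lower at an unadjusted p under 0.05 beside 2.66% and 2.83% of all. Whether the 3 tissues of a replicate number share rats is not stated in the labels.

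The acrylamide differences were also compared between tissues. In the F test of equal differences, 3 of the 7, Per3, Per2 and Cry1, had an unadjusted p under 0.05, beside 2.36% of all probe sets, and 0 passed limma's adjustment (0% of all). The acrylamide differences of Per3 and Per2 were furthest apart between nerve and cerebellum, by 0.60 ± 0.17 and 0.80 ± 0.26, and that of Cry1 between nerve and cord, by -0.46 ± 0.16. By pairs of tissues, an unadjusted p under 0.05 was found for 2 members in nerve and cerebellum, 1 in nerve and cord and 1 in cord and cerebellum, beside 3.4%, 2.5% and 1.82% of all, and limma's adjustment left 0 (0% of all) in each pair.

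The other genes of the loop were taken from a list of 30, of which 25 were on the arrays and 22 were tested in each tissue, each by its brightest probe set. In the nerve, 1 of the 22 passed limma, beside 0.00551% of all, and at an unadjusted p under 0.05 there were 3 higher and 1 lower, beside 2.72% and 2.38% of all. The gene called was the REV-ERB gene Nr1d1, with signals of 185 and 149 in saline and of 599 and 622 in acrylamide arrays and a difference of 1.78 ± 0.14 (limma adjusted p = 0.00864). The output activator Dbp had a difference of 0.60 ± 0.10, Nr1d2 of 0.71 ± 0.15 and the repressor Nfil3 of -0.59 ± 0.15, with adjusted p-values in limma of 0.557, 0.70 and 0.836. Per1, the period gene that is not a member, had signals of 409.7 and 524 in saline and of 309 and 275 in acrylamide arrays of the nerve, so that its acrylamide arrays were the lower ones where those of Per3 were the higher; it did not pass the test. Bmal1, the partner of Clock, had a difference of -0.0007 in the nerve, with means of 587 ± 7.91 and 588 ± 48.9 (SD, n = 2).

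In the cerebellum, 0 of the 22 passed limma (0% of all), with 1 higher and 0 lower at an unadjusted p under 0.05, beside 1.3% and 1.44% of all; it was Nr1d1 at 0.44 ± 0.14. Per1 there had signals of 554 and 588 in saline and of 366 and 287 in acrylamide arrays, below saline on both arrays like Per2, and did not pass the test. In the cord, 0 passed limma (0% of all), with 3 higher and 1 lower at an unadjusted p under 0.05, beside 1.02% and 1.86% of all. These were Nr1d1 (0.63 ± 0.14), Dbp (0.35 ± 0.10), Bhlhe41 (0.33 ± 0.11) and Bmal1 (-0.32 ± 0.13). Bhlhe41 had signals of 3658 and 3467 in saline and of 4222 and 4765 in acrylamide arrays of the cord. The median difference of the 22 was -0.004 in the cerebellum, 0.01 in the cord and 0.03 in the nerve, and that of all probe sets tested was -0.0002, 0.004 and 0.0009.

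Between tissues, 17 of these 22 other clock genes had lower signals in the cord than in the cerebellum, 15 of them passing limma lower and 4 higher, beside 34.9% and 31.9% of all. The ubiquitin protease gene Usp2 (-2.46 ± 0.13), the nuclear receptor gene Rora (-1.98 ± 0.16), Cry2 (-0.66 ± 0.06) and the D-box factor gene Tef (-0.72 ± 0.07) had the smallest p. For nerve against cord, 8 passed higher and 9 lower, beside 36.2% and 34.1% of all; by p the first was Bhlhe41 at -2.62 ± 0.08, where its relative Bhlhe40 was at -0.28 ± 0.10. For nerve against cerebellum, 1 passed higher and 15 lower, beside 34.6% and 44% of all, and Dbp had the smallest p, at -1.60 ± 0.07.

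**Figure D3:**
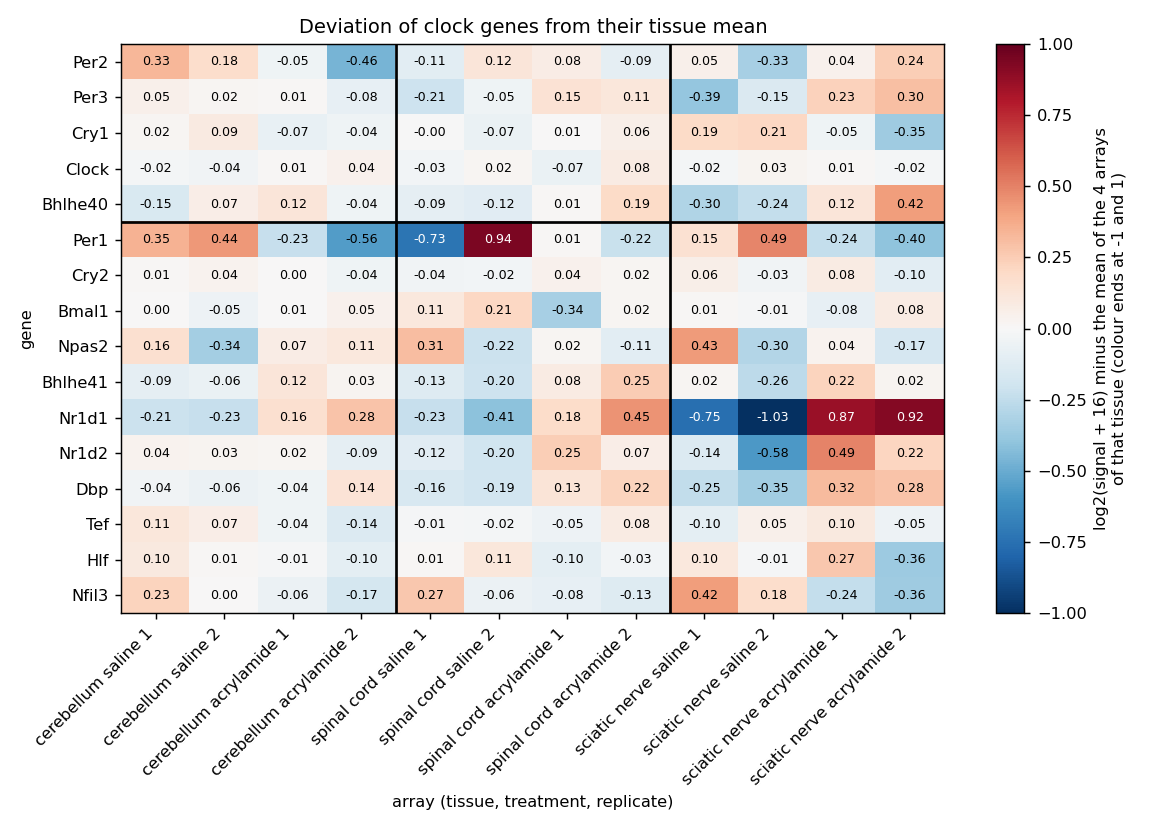
Log2(signal + 16) of 16 clock genes (rows; the 5 members above the black line, each by its brightest probe set) on the 12 arrays (columns) minus the mean of the 4 arrays of that tissue, with the value in each cell. In the nerve, Per3, Bhlhe40, Nr1d1, Nr1d2 and Dbp are negative on both saline and positive on both acrylamide arrays, and Cry1, Per1 and Nfil3 the reverse. Clock stays between -0.07 and 0.08 on all arrays.

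The members' patterns were compared with each other after the mean of each tissue was removed, on the log2 scale over 12 arrays. These correlations are descriptions: the arrays of a tissue share that mean, the differences between treatments are part of them, and arrays of different tissues may share rats. Per3 went with Bhlhe40 (r = 0.83), Nr1d1 (0.82) and Dbp (0.82) and against Nfil3 (-0.84) and Cry1 (-0.67). Bhlhe40 went with Nr1d1 (0.87) and against Nfil3 (-0.84) and Cry1 (-0.77). Cry1 went with Nfil3 (0.73) and against Nr1d1 (-0.76). Clock on 1390199_at had r between -0.56 and 0.42 with the 15 others.

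When the mean of each of the 6 groups was removed instead, so that only differences between replicates remained, most of these values were smaller or of the other sign. Per3 had r = 0.23 with Bhlhe40, -0.80 with Nr1d1 and -0.70 with Dbp. Bhlhe40 had r = 0.13 with Nr1d1, and Cry1 had r = 0.19 with Nfil3 and -0.47 with Bhlhe40. The r of Per3 with Nfil3 was -0.64. Replicate deviations mirror each other within a group, so these values rest on 6 differences between replicates, which were not shown to be independent. The positive r of Per3 with Nr1d1 was thus present with the treatment difference included and absent over replicate deviations. Clock and Bmal1 had r = 0.42 over tissue deviations and 0.77 over replicate deviations.

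**Figure D4:**
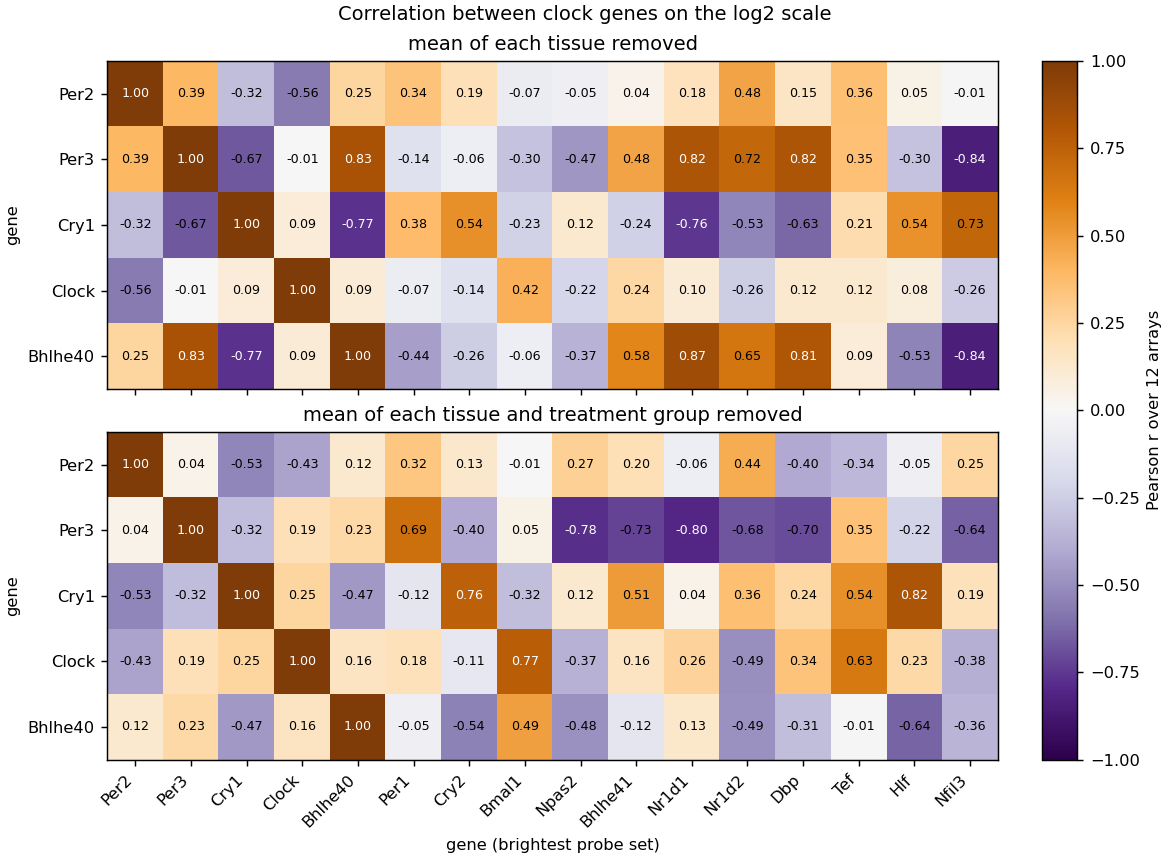
Pearson r between the 5 members (rows) and 16 clock genes (columns, brightest probe set), over 12 arrays on the log2 scale, with the mean of each tissue removed (top) or the mean of each tissue and treatment group removed (bottom). Per3 with Nr1d1 is at 0.82 in the upper and at -0.80 in the lower panel, and Per3 with Bhlhe40 at 0.83 and 0.23.

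Among 12188 probe sets with 1 symbol that passed the filter in all 3 tissues, the genes most like each member were listed by the same measure. The top values of so many correlations over 12 arrays are high by selection, and none was tested. After removal of tissue means, Per2 was most like the immediate early gene Fos (r = 0.92 over 12 arrays), with Scyl3 and Lime1 next (0.92 and 0.90). Fos had signals of 1839.96 and 959 in saline and of 482 and 179 in acrylamide arrays of the cerebellum. Per3 was most like Arpc3 (0.96), Kmt5c (0.93) and Sdf2l1 (0.93), Cry1 like Rfx5 (0.94), Tfdp2 (0.93) and Abcg4 (0.93), Clock like Dync1i2 (0.90), Tvp23b (0.90) and Gmpr2 (0.86), and Bhlhe40 like Cyp2d4 (0.96), Cabcoco1 (0.95) and Tnks2 (0.94). Without that removal, where tissue levels set the values, Cry1 was most like Mef2a (0.99), Clock like Arhgap42 (0.99), Per2 like Ttc8 (0.97), Per3 like Xrn1 (0.97) and Bhlhe40 like Magi1 (0.85).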

How the data were processed

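The deposited intensity values, 1 signal per probe set on a linear scale, were made by the authors with GCOS 1.1, per the submitters' processing notes, from biotin-labelled cRNA on 1-colour Affymetrix arrays, per the labels' protocols. For the algorithm and the scaling target: not given in the sources used here. The mean of an array trimmed by 2% at each end was close to equal between arrays. The number of arrays limits the precision, with a median standard error of 0.16 in each tissue.

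The 57 control probe sets were left out. In the platform annotation 20826 probe sets have 1 gene symbol, 436 have more and 9780 have none; 20758 were matched by gene ID to RefSeq's GRCr8 table. Values were analysed as log2(signal + 16). A probe set was tested in a tissue where its 4-array mean exceeded the 40th percentile of tissue means (signal 112). Mean and F tests needed all 3 tissues, and tissue comparisons 1 of the pair. All contrasts came from limma 3.58.1 in R 4.3.3, fitted once with 1 mean per group and a mean-variance trend, with 6 residual and 3.13 prior degrees of freedom. Tests were two-sided. On data simulated for the cerebellum, 68 of 95 changes of 1 and 89 of 92 changes of 2 on the log2 scale were recovered, and 7 unchanged probe sets were called. The acrylamide differences of the tested members were smaller, at most 0.54 in size. The simulation therefore does not show how often changes of their size would be recovered.

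All tested members are described; up to 4 other clock genes per comparison with the smallest p and 3 most alike genes per member are named. The alternatives changed the scaling (quantile, median centring), the pseudocount (1, 64), the filter (none, 60th percentile), the trend, the replicate block and the arrays used (each tissue alone, saline alone, arrays left out). The members and lists were chosen with earlier results of these data known. Per1, Fos and marker values outside the rule were chosen after they were seen.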

Additional observations from a re-analysis of the deposited data

Results flagged for a closer look

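The acrylamide difference of 4 member probe sets differed between a pair of tissues at an unadjusted p under 0.05 in limma, and none passed adjustment over all probe sets. The acrylamide difference of Per2, not its signal, was 0.80 ± 0.26 higher in nerve than in cerebellum (limma adjusted p = 0.999941), positive in the nerve and negative in the cerebellum. That of Per3 was 0.60 ± 0.17 higher in nerve than in cerebellum (limma adjusted p = 0.999941). That of Cry1 differed by -0.46 ± 0.16 between nerve and cord (limma adjusted p = 0.999854). That of Clock on 1380098_at differed by -0.64 ± 0.26 between cord and cerebellum (limma adjusted p = 0.999907), while the brighter Clock probe sets 1389456_at and 1390199_at were at 0.04 ± 0.14 and -0.04 ± 0.11 for the same pair. At that p, 3.4%, 2.5% and 1.82% of all probe sets differed for nerve and cerebellum, nerve and cord, and cord and cerebellum.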

How the results depend on the processing

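Under all alternatives run, limma called 0 of the tested member probe sets for acrylamide in each tissue and over their mean. For tissues the calls numbered 5 to 7 in cord against cerebellum (6 reported), 4 to 5 in nerve against cord (5) and 5 to 6 in nerve against cerebellum (5). These counts take in every member probe set tested in that alternative. The count of 7 includes a probe set too dim for the main model, since Bhlhe40 passed cord against cerebellum under no alternative. The replicate numbers are shared between treatments, but the labels do not say that they mark anything in common, and deviations of same-numbered arrays correlated at 0.096, -0.077 and 0.368 in cerebellum, cord and nerve; with the replicate number as a block, no member's acrylamide call differed, Bhlhe40 in nerve against cord lost its call (-0.28, limma adjusted p = 0.0546), and over all probe sets the nerve went from 1 call to 0 and the mean of tissues from 2 to 6.

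Differences near 0 turned sign, none of them called. Quantile normalization gave Per2 0.0119 for acrylamide in the cord and 0.00904 for nerve against cord, and Clock (1390199_at) 0.00241 in the nerve. Median centring gave Per2 0.0081 in the cord and 0.048 for nerve against cord, and Cry1 0.0256 for nerve against cord, where saline arrays alone gave Cry1 0.115; this centring moves the median of all probe sets from 0.04 to 0.18 in nerve against cord and from -0.14 to 0.03 in nerve against cerebellum. Without both nerve arrays of replicate 1, Clock (1389456_at) was 0.0731 in the nerve and Per2 0.0167 over the mean. With 1 array left out, Bhlhe40 in the cerebellum ran from -0.0285 to 0.19 and Per2 in the cord from -0.128 to 0.10. Clock (1389456_at) then ran from -0.0185 to 0.159 in the cord, -0.101 to 0.0843 in the nerve and -0.000902 to 0.0607 over the mean, and Clock (1390199_at) from -0.0588 to 0.0893, -0.0353 to 0.0146 and -0.00399 to 0.0454.

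Calls gained were Cry1 in nerve against cord without both nerve replicate 1 arrays (-0.19, limma adjusted p = 0.0468) or without that acrylamide array (-0.19, 0.0339), Clock (1380098_at) in nerve against cerebellum with quantile normalization (0.33, 0.0412) or median centring (0.38, 0.0275), and Bhlhe40 in nerve against cerebellum in saline alone (-0.42, 0.0274) or without nerve acrylamide replicate 2 (-0.27, 0.0443). Over all probe sets the nerve gave 0 to 389 calls and the mean of tissues 0 to 201, the highest without the nerve replicate 1 arrays, and the cerebellum and cord at most 2 and 1. Dim probe sets limit the rest: 3 of 10 were not tested.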
